A study of Triticum aestivum with 6 samples.

Results

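In 52 genes of bread wheat (Triticum aestivum), 1 transcript dominated leaf expression at 23 °C and a different transcript of the same gene dominated at 4 °C. They were chosen by the same measured values that are described below, so these values are given as a description with no test. The rule took, from 99386 gene IDs, genes with at least 2 assembled transcripts and a summed level of at least 5 FPKM (fragment numbers scaled by transcript length and sequencing depth) in both conditions. A gene was a member when its leading transcript held at least 60% of the gene's summed FPKM at each temperature and was not the same one at both. Of the 99386 genes, 13578 met the first requirements, and 7927 of these had a leading transcript with at least 60% in both conditions. The 52 genes are 0.656% of those 7927, and hold 208 transcripts.

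Bread wheat carries 3 subgenomes, named A, B and D, so that most genes have homoeologous copies on the corresponding chromosomes. Leaves were sampled from plants grown at 23 °C, labelled 2 weeks, and from plants grown at 4 °C, labelled 4 weeks, with 3 libraries each. The labels' treatment field gives 2 weeks of cold. All samples shared a 16-hour photoperiod and the label of an 18:3 lipid phenotype, 18:3 being the usual shorthand for a fatty acid with 18 carbons and 3 double bonds; genotype, cultivar and number of plants per library were not given in the sources used here. Temperature, growth chamber and labelled weeks differed together and cannot be told apart. The table has 1 column named control and 1 named cold, which were taken as 23 °C and 4 °C because 4 °C is the lower of the labelled temperatures. Every value below is the authors' single value for a condition, so no difference has an SD, an n or a p-value, and how far libraries of the same condition differ is unknown.

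A plant gene can give several transcripts by starting transcription at another promoter, by splicing the same precursor RNA in another way (most often by keeping an intron), or by ending it at another polyadenylation site. Such transcripts can encode different proteins, or can carry early stop codons and be degraded. In Arabidopsis, temperature is known to alter splicing of many genes, among them those of the circadian clock and of splicing factors. Short reads rarely span a whole transcript, so levels of transcripts of 1 gene are estimates that divide the reads they share, and the error of that division is not in the table. The transcripts here carry assembly numbers (TCONS) alone. Their structures were not used here, so which of these mechanisms separates the transcripts of a pair is unknown, and the IDs are not paired with gene names or functions.

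The 52 genes are the tail of a wider class. In 1667 of the 13578 genes, or 12.3%, the leading transcript differed between the temperatures at any share. In most of these, no transcript dominated. Of the 1615 that were not members, 1347 had a leading share under 60% in both conditions, 149 at 23 °C alone and 119 at 4 °C alone. Over all 1667 genes the smaller of both leading shares had a median of 40.9%, against 63.3% in the 52. As these shares define the members, the contrast follows from the rule.

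Most members lay close to the threshold. The smaller leading share was under 65% in 32 of the 52 genes and under 70% in 44, and reached 80% in 3. The leader at 23 °C held 60.2% to 99.6% of its gene at 23 °C (median 67.5%) and 0.0060% to 38.7% at 4 °C (median 26.5%). The leader at 4 °C held 0% to 39.8% at 23 °C (median 26.2%) and 60.4% to 99.9% at 4 °C (median 68.0%). The medians of both leaders were thus about alike, under a rule with the same threshold at both temperatures. Single genes could differ. Traes_2DS_4C97B317A had leading shares of 99.6% at 23 °C and 63.2% at 4 °C, and Traes_6AL_561563DC7 of 62.5% and 89.6%. At the median, the transcript that gave way still held 26.5% of its gene at 4 °C. Just inside the threshold, Traes_4BL_0174177391 had leading shares of 60.2% at 23 °C and 76.0% at 4 °C, and Traes_4AL_4C08F2E17 of 61.9% and 60.4%. Traes_7DL_FD9C633D7 had 60.4% and 66.5%, and Traes_4AL_15D992FDB 60.5% and 63.8%. Just outside it were Traes_5DL_7B3EC6D6D with 62.9% and 59.96%, Traes_1DS_275C61002 with 74.4% and 59.9%, Traes_2BS_642DC63EC with 59.8% and 67.5%, and Traes_5BL_04B6AE736 with 59.95% and 59.8%. The smaller leading share of these 8 genes lay between 59.8% and 60.5%.

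**Figure D1:**
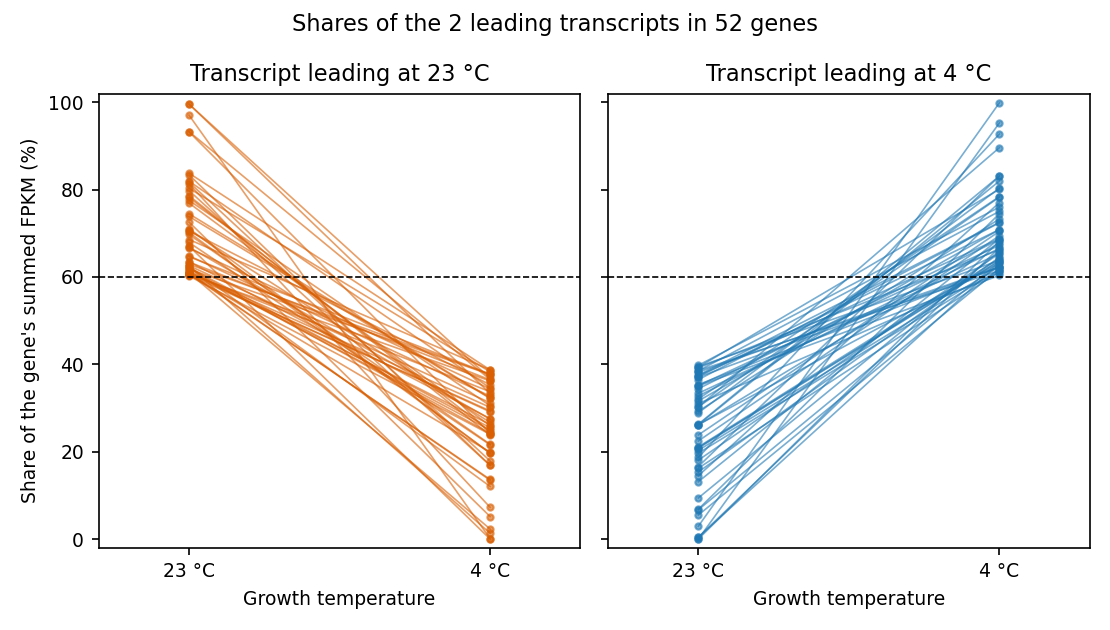
Share of the gene's summed FPKM (vertical axis, percent) held at 23 °C and at 4 °C by the transcript that leads at 23 °C (left) and by the one that leads at 4 °C (right); each line is 1 of the 52 genes and the dashed line is the threshold of 60%. The leader of 1 condition holds at most 39.8% in the other, where the rule itself requires a low share. The leading share has a median of 67.5% at 23 °C and 68.0% at 4 °C.

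The most complete switch was in Traes_4BL_523D155E21, on the long arm of chromosome 4B, which has only 2 transcripts. TCONS_00224531 went from 6.02 FPKM at 23 °C to 0.0873 FPKM at 4 °C. TCONS_00224532 went from 0.183 FPKM at 23 °C to 75.9 FPKM at 4 °C. Each transcript was thus nearly the only one in its condition, with 97.1% of the gene at 23 °C and 99.9% at 4 °C. The new transcript came at a higher level than the old one, and the gene's sum went from 6.21 to 76.0 FPKM. No other member had both leading shares at or above 90%.

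The 5 genes that followed in completeness kept their sums within 2-fold while the shares exchanged. In Traes_7BS_67C70F8DF, on the short arm of 7B, 1 transcript went from 11.4 to 4.55 FPKM and the other from 2.27 to 22.4 FPKM, so that the dominant share was 83.4% at 23 °C and 83.1% at 4 °C. Traes_3B_23827B17B, on chromosome 3B, had 5.94 and 1.36 FPKM at 23 °C against 0.721 and 9.19 FPKM at 4 °C. In Traes_4AS_108523DC2, on the short arm of 4A, the values were 21.9 and 3.98 FPKM at 23 °C against 4.86 and 22.2 FPKM at 4 °C. This gene came closest to a mirror image, since its sum was 27.5 FPKM at 23 °C and 28.8 FPKM at 4 °C and each transcript took over the level of the other. In Traes_4DL_456E8F1B3, on the long arm of 4D, the leaders had 21.4 and 1.79 FPKM at 23 °C against 5.65 and 23.5 FPKM at 4 °C. In Traes_3B_6EA05085F they had 8.41 and 3.05 FPKM at 23 °C against 0.401 and 6.45 FPKM at 4 °C. Its former leader ranked last of the gene's 4 transcripts in the cold.

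The 6 most abundant members, of which Traes_4BL_523D155E21 is 1, changed leader in several ways. Traes_7DL_C7B91557C, on the long arm of 7D, had the highest mean of the 52, 76.4 FPKM. Its leader at 23 °C, TCONS_00424799, had 40.4 FPKM there and 32.5 FPKM at 4 °C. Its leader at 4 °C, TCONS_00424796, had 12.9 and 55.6 FPKM. The change of leader in this gene therefore came mainly from the second transcript, while the first stayed within 1.3-fold. A further transcript of the gene went from 10.4 to 0.784 FPKM. Traes_3AS_9474A8C67, on the short arm of 3A, was a plain exchange, with 22.1 and 14.3 FPKM at 23 °C against 6.96 and 28.0 FPKM at 4 °C and a sum of 36.5 and 35.0 FPKM.

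In Traes_5BL_4DEC298F9, on the long arm of 5B, a transcript listed at 0 at 23 °C made up nearly the whole gene in the cold. TCONS_00282272 had 119.5 FPKM at 4 °C, or 95.3% of the gene. The leader at 23 °C had 3.38 FPKM there and 2.89 FPKM at 4 °C, and the next transcript 1.74 FPKM in both. Another went from 0.424 to 1.25 FPKM. Both main transcripts of 23 °C thus stayed within 1.3-fold, and a large one was added beside them. The gene's sum was 5.54 FPKM at 23 °C, close to the minimum of 5 FPKM, and 125.5 FPKM at 4 °C. Since an exact 0 in such a table may stand for an estimate that failed, no ratio is printed. This was the only member with a leader listed at 0 in the other condition.

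Traes_2DS_4C97B317A, on the short arm of 2D, was the only member in which both leaders were higher in the cold. TCONS_00123073 went from 17.8 FPKM at 23 °C to 36.6 FPKM at 4 °C, and TCONS_00123074 from 0.0770 to 62.8 FPKM. The former leader gained FPKM and yet went from 99.6% to 36.8% of the gene. Traes_3DS_E206759291, on the short arm of 3D, had a similar newcomer, named here after its values were seen. TCONS_00194687 went from 0.0388 FPKM at 23 °C to 11.96 FPKM at 4 °C, while the other transcript had 9.27 and 5.97 FPKM. In both genes 1 transcript made up 99.6% of the sum at 23 °C.

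In 3 members the sum was lower in the cold by at least 2-fold, and in these the former leader had lost most. Traes_4BL_0174177391, on the long arm of 4B, went from 72.2 to 20.4 FPKM. Its leader at 23 °C went from 43.5 to 4.89 FPKM and its leader at 4 °C from 28.7 to 15.5 FPKM, so the second transcript took the lead by losing less. Traes_3AS_AE6A2E802, on the short arm of 3A, went from 16.1 to 6.15 FPKM in the same way, with leaders at 10.004 and 6.04 FPKM at 23 °C and at 1.57 and 4.46 FPKM at 4 °C. In Traes_5AL_F44B3B5C4, on the long arm of 5A, the sum went from 25.1 to 8.87 FPKM, the leader at 23 °C from 23.4 to 3.24 FPKM and the other transcript from 1.68 to 5.63 FPKM. Here the losing and the gaining transcript moved in opposite directions.

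**Figure D2:**
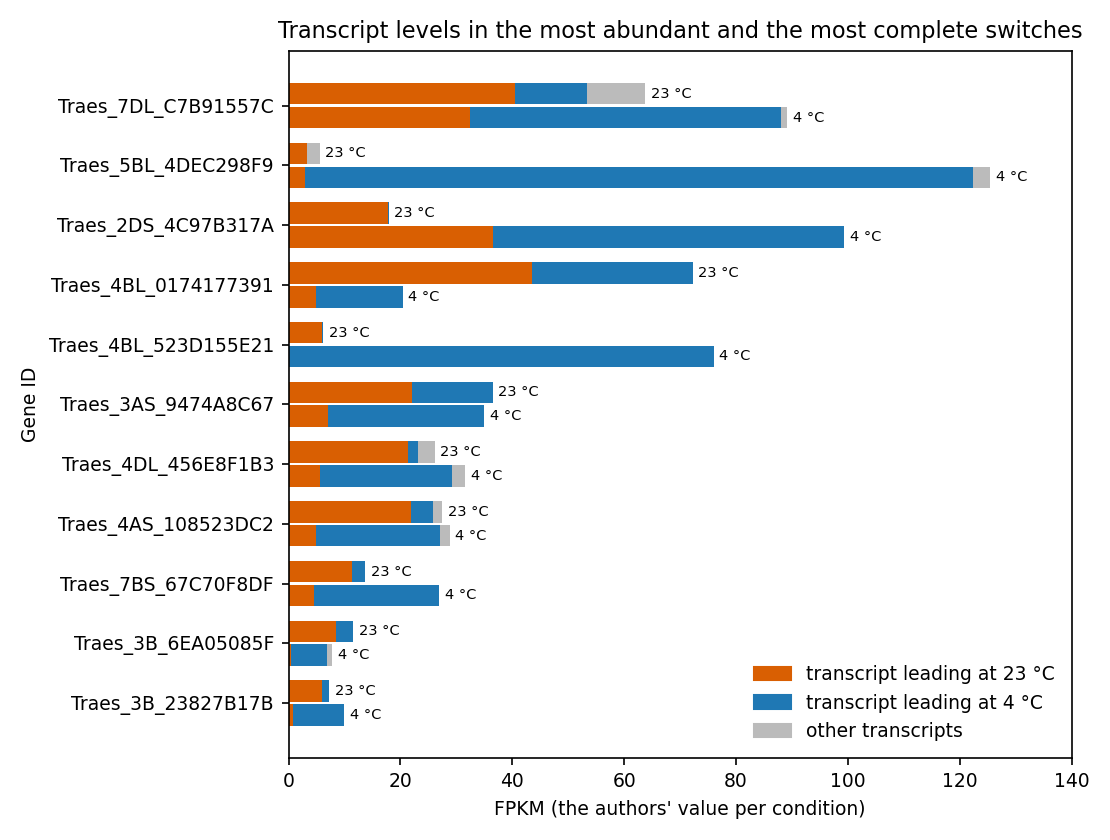
FPKM per condition (horizontal axis, linear, the authors' single value) of the transcript leading at 23 °C, the one leading at 4 °C and all other transcripts, stacked for the 11 members that were most abundant or most complete in their switch. Traes_4AS_108523DC2 keeps its sum while the parts exchange, Traes_5BL_4DEC298F9 and Traes_4BL_523D155E21 gain a large transcript, and Traes_4BL_0174177391 loses most of its former leader.

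Seen over all 52 genes, the leaders usually differed in opposite directions, counted at any size of difference. The leader at 23 °C was lower and the leader at 4 °C higher in the cold in 48 genes. Both were higher in 1 gene, Traes_2DS_4C97B317A. Both were lower in 3, Traes_4BL_0174177391, Traes_3AS_AE6A2E802 and Traes_5AL_CA3CF0003. Opposite directions are what the rule favours where a sum is about level, so this count is a description. On the log2(FPKM + 1) scale, the leader at 23 °C was at least 2-fold lower at 4 °C in 28 members, where 7.20% of the 13578 genes showed this for their own leader. The leader at 4 °C was at least 2-fold higher there in 33 members, where 14.1% of the 13578 genes did. Both held in 16 members, the former alone in 12, the latter alone in 17 and neither in 7. An exchange with both leaders past 2-fold was thus not the usual form. Nothing is read from these counts against the background, since the rule used the same values.

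The leader of 1 condition was seldom near 0 in the other, but mostly low there. The leader at 23 °C was under 5 FPKM at 4 °C in 44 of the 52 genes. The leader at 4 °C was under 5 FPKM at 23 °C in 45. In 40 of the 52 genes, both leaders had at least 1 FPKM in both conditions. The leader at 4 °C was under 1 FPKM at 23 °C in 8 genes and under 0.1 FPKM in 4. The leader at 23 °C was under 1 FPKM at 4 °C in 6 genes and under 0.1 FPKM in 3. One of the 3, Traes_4AL_C6DDF9820 on the long arm of 4A, is named after its values were seen. Its transcript TCONS_00201739 went from 10.2 to 0.00054 FPKM, while TCONS_00201743 went from 3.62 to 6.31 FPKM. In Traes_4DL_67EFB6303, on the long arm of 4D and named in the same way, it was the leader at 4 °C that was near 0 in the other condition, since TCONS_00245676 went from 0.00022 to 4.46 FPKM and the former leader from 5.23 to 1.58 FPKM. Values this near 0 give no usable fold.

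The size of the shift was also measured over all transcripts of a gene, as the share of FPKM that sat on other transcripts in the cold (the summed gains in share of all transcripts whose share was higher at 4 °C). It ranged from 24.1 to 96.9 percentage points in the 52 genes, with a median of 45.7. The median was 8.16 points over the 13578 genes and 23.3 over the 1667 with another leader. As the shift is computed from the shares that define the members, this contrast follows from the rule. A shift of at least the members' median occurred in 186 of the 13578 genes, or 1.37%, of which 26 were members. Of these 186, 162 had another leading transcript and 24 kept the same one. Large shifts were therefore not limited to the 52 genes. The largest values of all belonged to the members Traes_4BL_523D155E21 with 96.9 points and Traes_5BL_4DEC298F9 with 95.3, and 13 members reached 60 points among 44 genes that did.

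**Figure D3:**
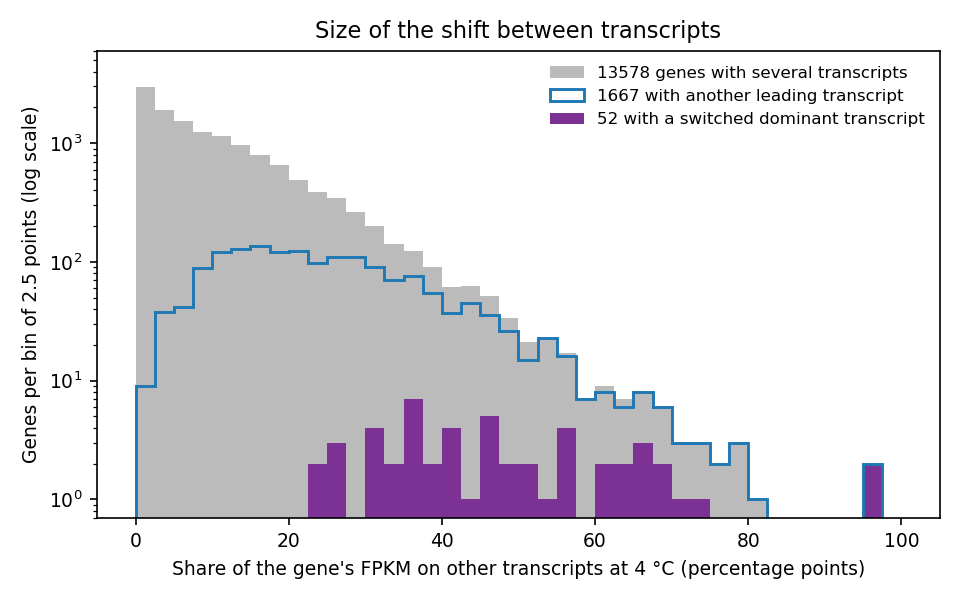
Number of genes (vertical axis, log scale) by the share of FPKM that sat on other transcripts at 4 °C (horizontal axis, percentage points) for the 13578 genes with several transcripts, the 1667 with another leading transcript and the 52 with a switched dominant transcript. The 52 genes begin at 24.1 points, since the rule itself requires a large shift, and many genes outside the rule have shifts as large.

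In 46 of the 52 genes the sum over all transcripts differed by less than 2-fold on the log2(FPKM + 1) scale. The sum was at least 2-fold higher at 4 °C in 3 members (5.77%), where 11.4% of the 13578 genes were. It was at least 2-fold lower in 3 members (5.77%), where 4.75% were. The median log2 difference was 0.16 in the members and 0.14 in the 13578 genes. Both medians followed the scaling of the columns, and were 0.08 and 0.06 after median-of-ratios scaling and -0.07 and -0.08 after quantile normalization, so no direction is given. The sum was higher in the cold in 31 members (59.6%) and lower in 21 (40.4%), where 60.5% and 39.5% of the 13578 genes were. As a plain ratio of FPKM, it was within 1.3-fold in 25 members (48.1%) and in 43.4% of the 13578 genes. The 3 with higher sums were Traes_5BL_4DEC298F9, Traes_4BL_523D155E21 and Traes_2DS_4C97B317A. The next, Traes_7BS_67C70F8DF, went from 13.7 to 27.0 FPKM.

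**Figure D4:**
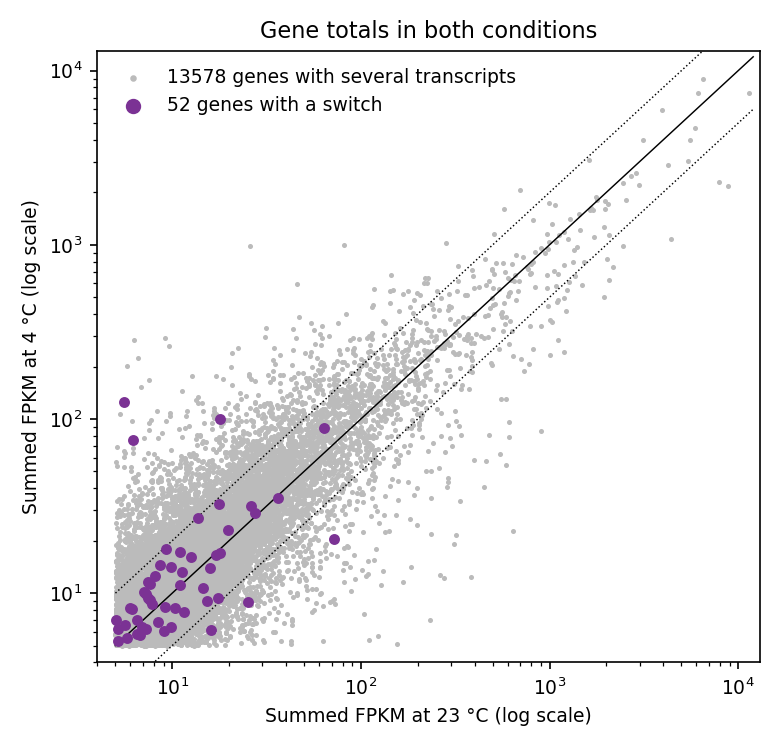
Summed FPKM of each gene at 23 °C (horizontal axis) and at 4 °C (vertical axis), both log scale, for the 13578 genes with several transcripts in grey and the 52 with a switch in purple; the solid line marks equal values and the dotted lines a plain ratio of 2. The purple points lie mostly between the dotted lines and at low sums, with 3 far above and 3 below.

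The members had lower levels than the 7927 genes with a dominant transcript. Their mean over both conditions had a median of 10.7 FPKM and ranged from 5.24 to 76.4 FPKM, while the latter had a median of 14.9 FPKM. Of genes with a mean under 10 FPKM, 25 of 2367 were members, or 1.06%. This share was 0.629% at 10 to under 20 FPKM, 0.429% at 20 to under 50 FPKM and 0.26% (3 of 1152) at 50 FPKM or more. The share of switches was thus lower at each higher level. Estimates of low transcripts rest on fewer fragments, and the part of this in the result was not tested. Together the 52 genes made up 0.0707% of the FPKM in the table at 23 °C, and 0.0939% at 4 °C. Most of the difference between their totals, 711 and 988 FPKM, lay in 3 genes. Traes_5BL_4DEC298F9 went from 5.54 to 125.5 FPKM, Traes_2DS_4C97B317A from 17.9 to 99.3 FPKM and Traes_4BL_523D155E21 from 6.21 to 76.0 FPKM.

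The number of transcripts had a median of 3 and quartiles of 2 and 5, both in the members and in the 7927 genes. It was 2 in 24 genes, 3 to 5 in 19 and 6 or more in 9, of which Traes_4AL_C6DDF9820 had the most, 13. At least 10 transcripts were found in 7.69% of members and 6.02% of the 7927 genes. Of the genes dominated by 1 transcript in both conditions, 0.982% of those with 2 transcripts were members (24 of 2445), 0.519% of those with 3 to 5 and 0.494% of those with 6 or more. For another leader at any share (1667 of the 13578 genes) the order was the opposite. It occurred in 118 of the 2784 genes with 2 transcripts and in 1089 of the 5435 with 6 or more. The share of 60% was required of the members and of the 7927 genes, and not of the 1667, so these sets are not alike. The part of the rule in these numbers was not tested.

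In the 24 members with 2 transcripts, the switch could only be between that pair. Of the 28 with at least 3 transcripts, both leaders ranked second in the other condition in 19, or 67.9%. Over all 52, just 2 transcripts reached 1% of the sum in either condition in 28 genes, 3 in 12 and 4 or more in 12. In 16 of the 28 genes with at least 3 transcripts, all remaining transcripts together stayed under 10% of the sum in both conditions, and in 4 they reached 20% in either. One of the 4 was Traes_5BL_4DEC298F9, where they held 39.0% at 23 °C and 2.42% at 4 °C. Another was Traes_4AL_C6DDF9820, where they held 9.08% at 23 °C and 29.5% at 4 °C, and where a transcript other than the former leader came second in the cold with 20.1%. The counts of rank and of remaining transcripts were not made for other genes, so they are not read as traits of the members.

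In the assembly's numbering, the leaders were next to each other in 14 of the 28 members with at least 3 transcripts, and in the 24 with 2 transcripts, which have no other neighbour to choose. In 13 genes they lay 2 to 8 numbers apart. The leader at 4 °C had the higher number in 22 genes and the lower in the other 30. These counts of neighbours and of order were not made for other genes, so nothing is read from them. In 1 gene, Traes_5AL_CA3CF0003, the numbers were 7221 apart, TCONS_00273388 leading at 23 °C with 10.7 FPKM and TCONS_00266167 at 4 °C with 5.79 FPKM. Whether both of its transcripts come from 1 locus is not known here. A gap in the numbers of a gene's transcripts occurred in 1.92% of members and 2.04% of the 13578 genes.

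The 52 genes were spread over 28 of the 41 chromosome arms that the IDs name. The A subgenome held 19, B held 17 and D held 16, or 36.5%, 32.7% and 30.8%. Of the 7927 genes with a dominant transcript, the same subgenomes held 31.3%, 33.2% and 35.5%. By homoeologous group, groups 3 and 4 held 12 genes each, or 23.1%, where they held 15.7% and 13.5% of the 7927. Group 7 held 8, or 15.4% against 13.8% of the 7927. Groups 2 and 5 held 6 each, or 11.5% against 16.4% and 16.1%. Groups 1 and 6 held 4 each, or 7.69% against 13.6% and 10.8%. Chromosome 3B, which the IDs do not split into arms, had 6 members of 487 such genes (1.23%), and 4AL had 5 of 225 (2.22%). The arms 2BL, 3AS, 3DS, 5AL and 7DL had 3 each, of 249, 160, 126, 314 and 193 such genes. Counts this small were not tested, and reads from 1 homoeologue may have been counted for another. Which members are copies of each other is not known from the IDs.

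**Figure D5:**
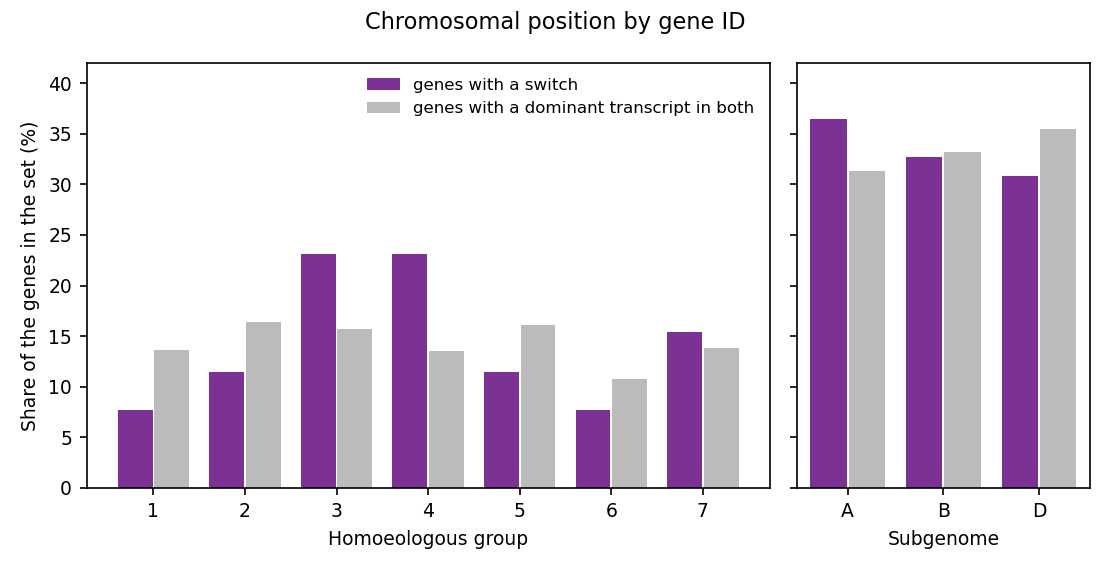
Share of genes (vertical axis, percent) by homoeologous group (left) and subgenome (right), for the 52 genes with a switch and the 7927 with a dominant transcript in both conditions. Groups 3 and 4 each hold 23.1% of the 52 genes, against 15.7% and 13.5% of the 7927. The subgenomes hold 30.8% to 36.5% of the 52 and 31.3% to 35.5% of the 7927.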

How the data were processed

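Leaf RNA of 6 libraries, 3 per growth temperature, was sequenced. The submitters' processing notes name Cuffdiff 2.1.1 and Cufflinks 2.1.1, STAR 2.3.0e, Trimmomatic 0.30 and CASAVA 1.8.2. What each did, the genome build, the annotation and the way the libraries of a condition were combined were not given in the sources used here. As values, the authors deposited FPKM, fragments scaled by transcript length and by mapped fragments, with 1 value per transcript and condition. Depth is unknown. Among 6367 single-transcript genes above 0 in both conditions with a mean under 0.5 FPKM, no ratio of 4 °C to 23 °C, at 4 decimals, occurred in more than 5 genes, so no step of 1 read was found.

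From these values, each transcript's share of its gene's summed FPKM was computed with Python 3.11.15 and pandas 2.3.3. Differences of levels are on the log2(FPKM + 1) scale, which understates those of low transcripts. No test was possible with 1 value per condition; limma, planned for values per library, was not used. The search for switches was tested on simulated data with known switches, planted without noise in a copy of the 23 °C values. That checks how the rule was applied, and not the error of the values. Genes and comparisons were chosen with earlier results of these data known. The named genes are the 6 most abundant, the 6 with the most complete switch, the 4 nearest the threshold on each side, and the 4 whose sum was highest and the 4 whose sum was lowest at 4 °C relative to 23 °C; others named were chosen after their values were seen. None of the 52 gene IDs matched the table of RefSeq genes of the assembly IWGSC CS RefSeq v2.1.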

Additional observations from a re-analysis of the deposited data

How the results depend on the processing

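No paired analysis was possible because values per library are not in the table; the settings that leave out a replicate were likewise not run. The count of 52 genes was 48 without homoeologous group 6, 51 after median-of-ratios scaling and 42 with a pseudocount of 0.1 FPKM per transcript. It depended on the thresholds. With a leading share of at least 50%, 70% or 80% in place of 60% it was 413, 8 or 3, and with no minimum 1667. With a sum of at least 1, 10 or 20 FPKM in place of 5 it was 214, 17 or 5, and with a pseudocount of 1 FPKM per transcript 22. The median log2 difference of the sums (0.16) was 0.18 with a pseudocount of 0.1 FPKM and 0.077 after median-of-ratios scaling; it reversed to -0.072 under quantile normalization, which gives both columns 1 distribution. Members at least 2-fold higher numbered 3 under each of these, and those at least 2-fold lower 3, or 4 after quantile normalization. Members with a leader at 0 in the other condition numbered 1, and 7 under 0.1 FPKM or 12 under 1 FPKM. Without group 6 the subgenomes A, B and D held 37.5%, 33.3% and 29.2%. Depth is unknown, so no detection limit can be given.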
